A study of Rattus norvegicus with 4 samples.

Results

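The genes described here encode proteins of the pre-mRNA splicing machinery: heterogeneous nuclear ribonucleoproteins (hnRNPs), serine and arginine rich (SR) proteins, subunits of the SF3A and SF3B complexes, proteins of the small nuclear ribonucleoproteins (snRNPs) and the U2 auxiliary factor (U2AF). They were chosen by name, as every gene on the array with a probe set annotated to a single symbol beginning with Hnrnp, Srsf, Sf3a, Sf3b, Snrp or U2af. This gave 50 of the 14217 genes with such a probe set, measured by 81 of 31099 probe sets. They comprised 17 hnRNP, 11 SR, 3 SF3A, 6 SF3B, 10 snRNP and 3 U2AF genes. A probe set is a group of short array probes to 1 transcript, and each gene was represented by its set with the highest mean signal.

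The cells compared are labelled AA4+ mast cells, AA4 being an antibody to a ganglioside on rat mast cells. They came from the lymph nodes draining the pancreas of female BB (BioBreeding) rats, 65 days old. The diabetes-prone group was DRlyp/lyp, homozygous for the lyp allele of Gimap5, which leaves few peripheral T cells. The diabetes-resistant group was DR+/+, with the normal allele. Each group was 1 RNA pool of 8 animals, and both pools were run on 2 arrays from independent amplifications. Every p-value below therefore measures the spread between amplifications and arrays, and compares a DRlyp/lyp pool with a DR+/+ pool. Differences between animals cannot be told apart from differences between genotypes, and the number of arrays limits the precision.

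Splicing removes introns from new transcripts in the spliceosome, which is built on each intron from snRNPs. U2AF reads the end of the intron and helps the U2 snRNP, with its SF3A and SF3B parts, to settle on the branch site. SR proteins mostly favour the use of nearby exons and hnRNPs often oppose them, so the balance of both families sets many choices between alternative exons, among them those of the phosphatase CD45 in lymphocytes.

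Values are signal in linear units, as deposited. For the tests they were floored at 6.8 and log2 transformed, and a probe set had to exceed 28.3, the median of all values, on at least 2 of the 4 arrays. Of the 50 genes, 47 passed. Srsf7, its pseudogene Srsf7-ps4 and Snrpn did not, with signals of at most 25.7 on every array. No tested gene lay below 28.3 on both arrays of a pool, so none entered the test through 1 pool alone. Differences are DRlyp/lyp minus DR+/+, tested two-sided with limma over all 16068 probe sets that passed, with Benjamini-Hochberg adjustment and a threshold of 0.05.

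Values of the whole array that accompany every difference below are as follows. Kit, the stem cell factor receptor and 1 of 10 mast cell markers, did not exceed 11.3 on any array and so was not tested. Gata2 did not pass the filter either. Of the 8 tested markers 2, Mcpt1 and Fcer1a, were higher and 2, Tpsb2 and Tpsab1, lower. The summed signals of the 10 were 2716 to 2809 on the DRlyp/lyp arrays and 1795 to 1806 on the DR+/+ arrays. The gap between these sums lay in Mcpt1, at 1665 and 1602 on DRlyp/lyp arrays, against 669 and 655 on DR+/+ arrays. All 9 markers of the exocrine pancreas were higher in the DRlyp/lyp pool (8016 to 8253 on DRlyp/lyp arrays, 183 to 200.4 on DR+/+ arrays). Cpb1, Ctrb1, Pnliprp1, Cpa1, Cel and Clps lay below 28.3 on both DR+/+ arrays. These passed the filter through the DRlyp/lyp arrays alone, so the filter itself favoured a higher call for them. Of 5 plasma cell markers 2 were higher and 1 lower (17212 to 17399 and 14303 to 14698). Of 10 T cell markers, 9 were higher and 1 lower, with summed signals of 8254 to 8317 on the DRlyp/lyp arrays and 1880 to 2033 on the DR+/+ arrays. The lower one, Cd4, passed the filter through the DR+/+ arrays alone. Of 6 tested B cell markers 0 were higher and 4 lower (limma; 7736 to 8011 on DRlyp/lyp arrays, 10504 to 11600 on DR+/+ arrays), and of 10 macrophage markers 2 were higher and 7 lower (7683 to 7825 and 12444 to 13099). Of 24 cell cycle genes 17 were higher and 0 lower (11071 to 11127 and 7143 to 7552), and of 21 tested immediate-early genes 1 was higher and 16 lower (12493 to 12797 and 28447 to 28935). The log2 gap between the 3′ and 5′ control sets of beta-actin, which grows as amplified RNA gets shorter, was 4.43 and 4.55 on DRlyp/lyp arrays against 3.01 and 3.10 on DR+/+ arrays, and that of GAPDH 2.49 and 2.44 against 1.74 and 1.57. The part of each of these in the differences of splicing factor genes was not tested. Fewer cells of a type and less RNA per cell cannot be told apart in such pools.

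Splicing factor genes were more often lower than higher in the DRlyp/lyp pool. Of the 47 tested, 20 (42.6%) were lower and 10 (21.3%) higher, and 17 did not pass the threshold. Over all 9342 genes tested in the same way, 21.1% were lower, 20.9% higher and 42.0% called in either direction. The share of higher splicing factor genes thus lay near that of all genes, and the share of lower ones lay above it. Since brighter sets are called more often, the same was counted among sets above the 75th percentile of signal, where 19 of 43 splicing factor genes (44.2%) were lower and 10 (23.3%) higher, against 28.4% and 26.9% of all genes. With each array centred on its median, 20 were lower and 8 higher, against 26.1% and 14.4% of all genes. The median log2 difference was -0.11 over the splicing factor genes and 0.00 over all genes.

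Most differences were modest, as they were over the whole array. The median absolute log2 difference was 0.34 over the tested splicing factor genes and 0.36 over all genes tested. Of the 30 genes called, 17 differed by at least 1.5-fold, 5 of them higher and 12 lower, and 13 by less. The share of all genes called at that size was not counted. At least 2-fold, 0 of the 47 were higher and 4 lower, against 5.08% and 4.59% of all genes. Among the 4 is Hnrnpul1, which read 1.4 on DRlyp/lyp replicate 1, below the floor of 6.8. The arrays of the 2 pools did not overlap for 41 of the 47 genes, against 71.8% of all genes. Of the 30 calls, 5 stood under all 15 alternative settings of the analysis, which included a test against a 1.5-fold difference. The other 25 were lost under at least 1 of these settings.

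**Figure D1:**
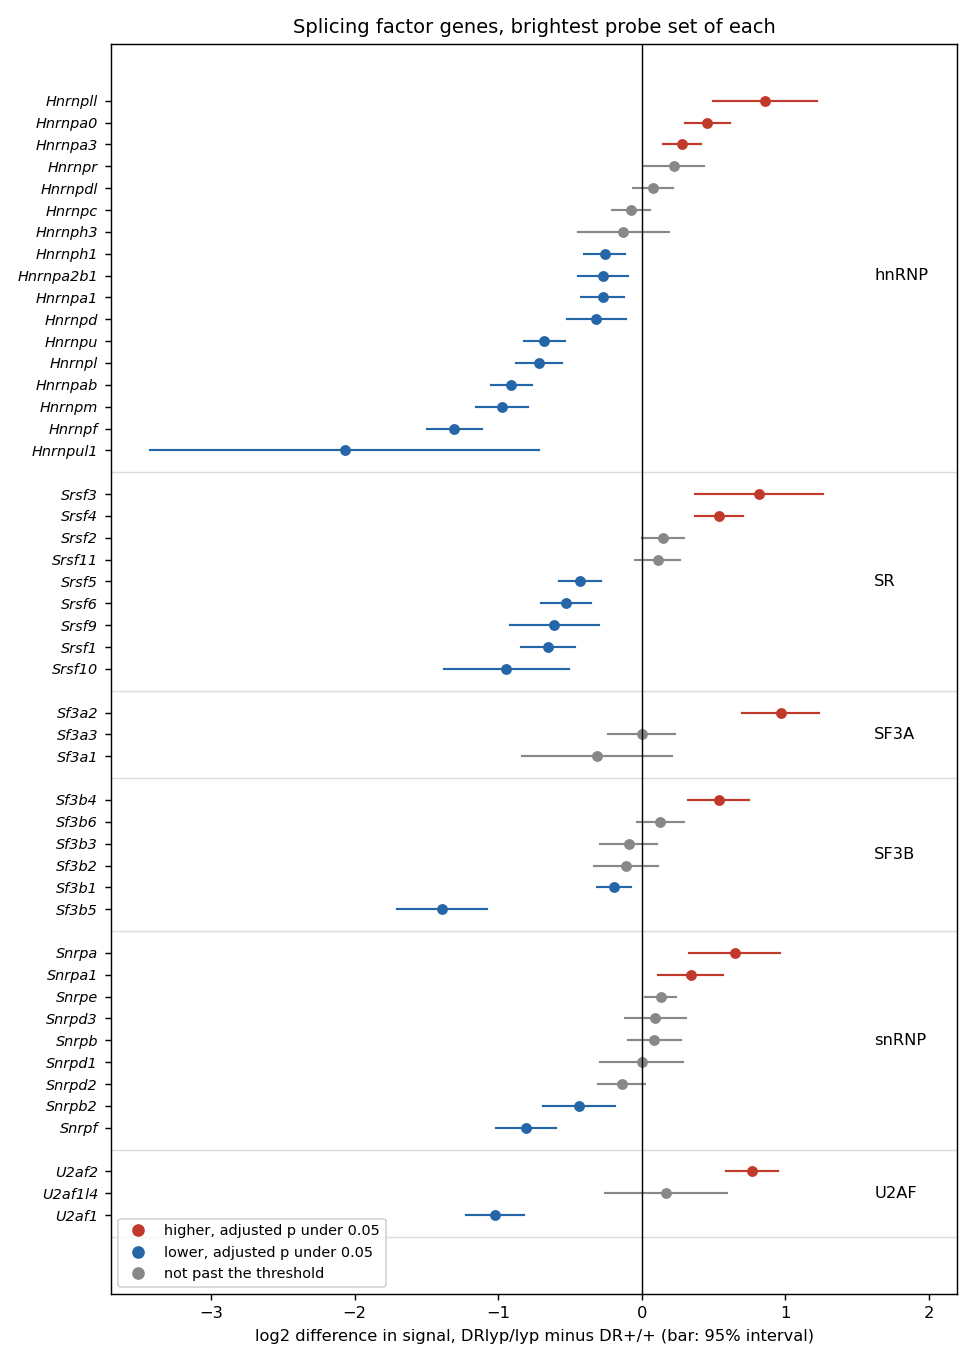
Log2 difference in signal (DRlyp/lyp minus DR+/+, horizontal axis) of the 47 tested splicing factor genes, 1 point per gene with its 95% interval, grouped by family. Red points are called higher (10 genes), blue points called lower (20 genes) and grey points did not pass the threshold (17 genes); 10 of the 17 hnRNP genes are blue.

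The lower calls lay largely in the hnRNP and SR families. Among 17 hnRNP genes 10 (58.8%) were lower and 3 (17.6%) higher, and their median was -0.27 on the log2 scale. Among 9 tested SR genes 5 (55.6%) were lower and 2 (22.2%) higher, and their median was -0.43. The 9 SF3 genes had 2 of each, with a median of -0.09, and so had the 9 tested snRNP genes, with a median of 0.09. Differences between these families were not tested.

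**Figure D2:**
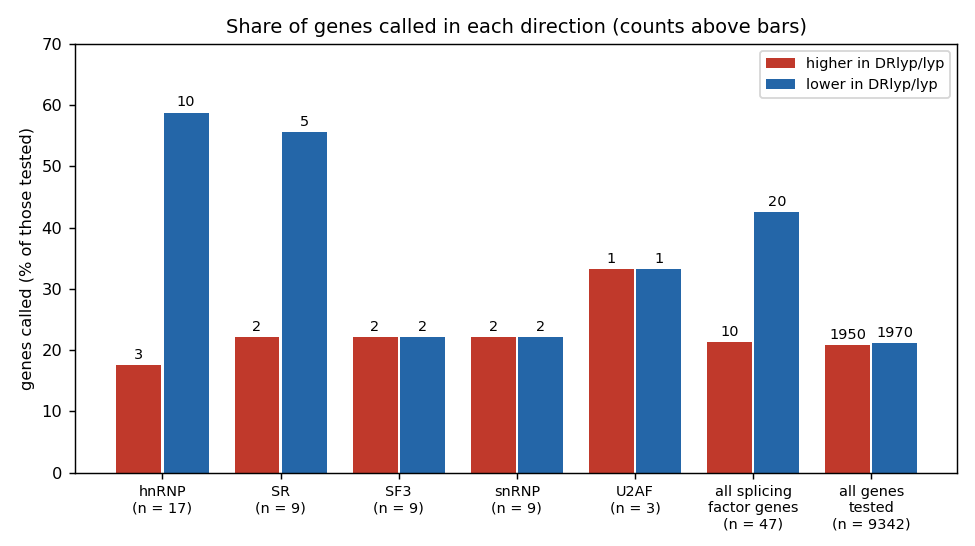
Share of tested genes (vertical axis, percent) called in each direction, red where the DRlyp/lyp pool was higher and blue where it was lower (adjusted p under 0.05), for each family, for all 47 splicing factor genes and for all 9342 genes tested; counts stand above the bars. The blue bars of the hnRNP and SR families exceed the blue bar of all genes, at 21.1%, and the red bars of those families lie near that of all genes, at 20.9%.

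Sequence is shown for the genes with the largest higher and lower differences in the SF3 family and for U2af1, which is lower while its partner is higher. Each window holds the 140 bases before the annotated start in RefSeq's GRCr8 assembly, 5′ to 3′ on the gene's strand, with matches to 7 promoter motifs in capitals.
Sf3a2 (chr7:9566206-9566345, minus strand): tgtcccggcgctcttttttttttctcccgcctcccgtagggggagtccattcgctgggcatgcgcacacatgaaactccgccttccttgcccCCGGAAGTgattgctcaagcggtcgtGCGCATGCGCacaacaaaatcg
Sf3b5 (chr1:9177049-9177188, plus strand): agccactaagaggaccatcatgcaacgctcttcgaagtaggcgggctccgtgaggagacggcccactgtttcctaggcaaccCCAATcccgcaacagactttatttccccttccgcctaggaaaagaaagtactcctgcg
U2af1 (chr20:9755095-9755234, minus strand): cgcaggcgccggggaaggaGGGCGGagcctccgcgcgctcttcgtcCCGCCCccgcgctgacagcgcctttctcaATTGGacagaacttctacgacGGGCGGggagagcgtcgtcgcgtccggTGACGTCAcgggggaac

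Both strands of the 250 bases before the start were searched in 50 windows of 46 of the genes and in all 33469 windows of the table. Hnrnpll, Sf3b2, Srsf7-ps4 and U2af2 had no entry. The ETS motif CCGGAAGT, seen in Sf3a2, stood in 8 of the 50 windows (16.0%) and in 3.1% of all windows, and the NRF1 motif, the later run of capitals in Sf3a2, in 2 (4.0%) and 0.762%. The CRE motif TGACGTCA, seen in U2af1, stood in 1 (2.0%) and 1.59%. The GC box GGGCGG stood in 31 (62.0%) and 30.5%, the CCAAT box in 26 (52.0%) and 34.0%, the E-box CACGTG in 4 (8.0%) and 5.59%, and the YY1 motif AAGATGGC in 0 and 1.63%. Among windows of genes called higher and lower, the ETS motif stood in 2 of 8 and 3 of 23, and the GC box in 4 of 8 and 15 of 23. The windows were not matched for base composition, and a match says nothing of binding.

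U2AF is a dimer in which the large subunit, encoded by U2af2, binds the pyrimidine tract near the end of the intron and the small subunit, encoded by U2af1, reads the final AG. U2af2 read 1813 and 1592 on the DRlyp/lyp arrays, against 995 and 999.7 on the DR+/+ arrays (1.70-fold higher, log2 difference 0.77 with a 95% interval of 0.59 to 0.95; limma adjusted p = 2.9e-05). U2af1 read 534 and 590.0 on the DRlyp/lyp arrays, against 1162 and 1120 on the DR+/+ arrays (2.03-fold lower, log2 difference -1.02 with an interval of -1.23 to -0.82; limma adjusted p = 7.98e-06). The pools did not overlap for either subunit, as for 71.8% of all genes tested, and the differences had opposite signs. U2af1l4, a relative of the small subunit, read 115 and 126 on DRlyp/lyp arrays and 106 and 109 on DR+/+ arrays and did not pass the threshold (log2 difference 0.17, interval -0.26 to 0.59; limma adjusted p = 0.531). The other tested set of U2af2 pointed the same way without passing it (0.49, limma adjusted p = 0.323). Without the filter on signal, the brightest set of U2af2 did not pass (limma adjusted p = 0.0562) and that of U2af1 did (0.0381).

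SF3A and SF3B are parts of the U2 snRNP that clamp it onto the branch site. Sf3a2 was the most strongly higher of all the splicing factor genes called, at 609 and 514 on DRlyp/lyp arrays, against 284 and 288 on DR+/+ arrays (1.96-fold, log2 difference 0.97 ± 0.12 SE; limma adjusted p = 9.93e-05). The other SF3A subunits did not pass the threshold: Sf3a3 read 611 and 678 on DRlyp/lyp arrays and 602 and 689.7 on DR+/+ arrays (-0.00, interval -0.24 to 0.23), and Sf3a1 differed by -0.31 (interval -0.83 to 0.21). Among SF3B genes, Sf3b5, a small subunit, was lower at 171 and 167 on DRlyp/lyp arrays, against 486 and 405 on DR+/+ arrays (2.62-fold lower, log2 difference -1.39 ± 0.14 SE; limma adjusted p = 1.9e-05). Sf3b4, an RNA-binding subunit, was higher at 749 and 787 on DRlyp/lyp arrays, against 548 and 512 on DR+/+ arrays (1.45-fold; limma adjusted p = 0.00115).

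Sf3b1, the scaffold of the complex and mutated in many human myelodysplasias, read 3286 and 3304 on DRlyp/lyp arrays, against 3830 and 3693 on DR+/+ arrays (1.14-fold lower; limma adjusted p = 0.0151). This small difference was not past the threshold without DRlyp/lyp replicate 1 (adjusted p = 0.0779), nor when the second DRlyp/lyp array (0.0634) or the first DR+/+ array (0.0757) was left out. Its other 2 tested sets were also on the lower side, at -0.25 and -0.60, without passing it. Sf3b2, Sf3b3 and Sf3b6, whose product contacts the branch adenosine, differed by -0.11, -0.09 and 0.13 and did not pass it. Genes of the SF3B complex were thus called in both directions, on either side of members that did not pass.

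**Figure D3:**
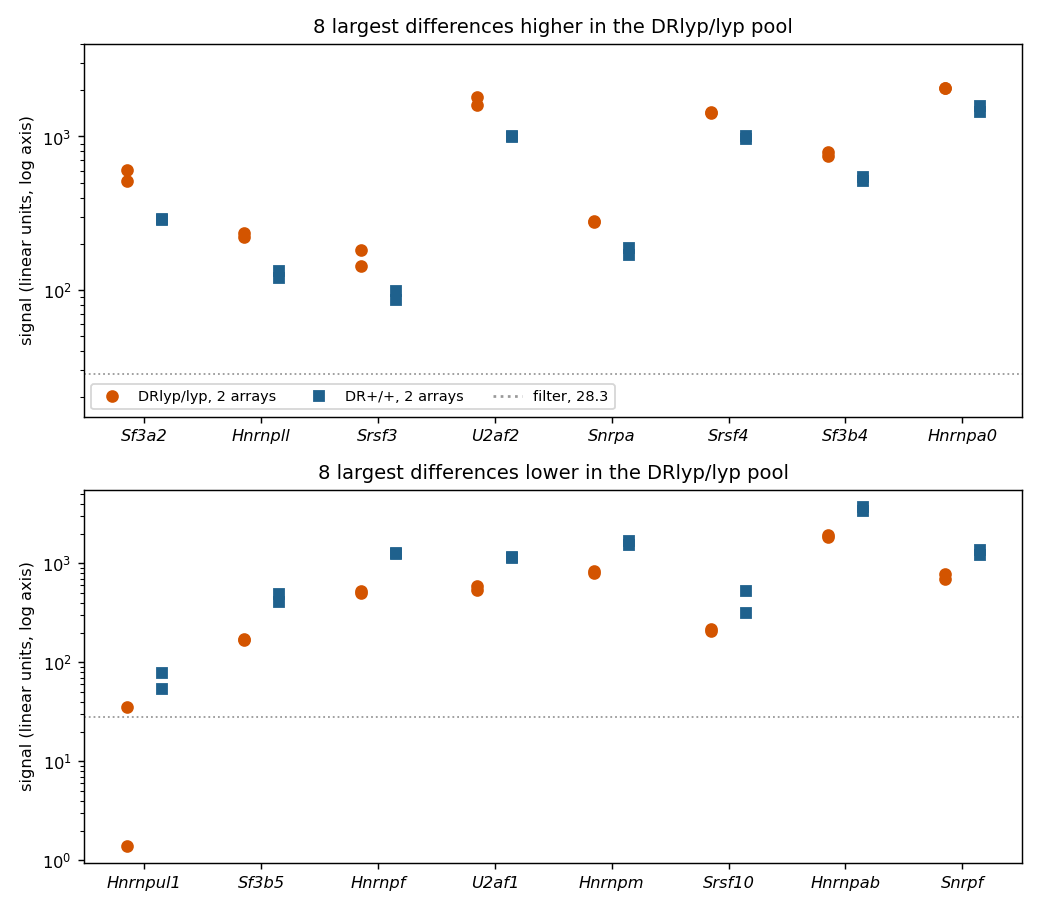
Signal on each array (vertical axis, linear units on a log axis) of the 8 splicing factor genes with the largest higher and the 8 with the largest lower differences among those called; circles are the 2 DRlyp/lyp arrays, squares to their right the 2 DR+/+ arrays, and the dotted line is the filter at 28.3. The pools do not overlap for any of the 16 genes, which were picked for their large differences, nor for 71.8% of all genes tested. For Hnrnpul1 the DRlyp/lyp arrays lie far apart, at 1.4 and 35.7.

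The snRNP genes include those of the ring of Sm proteins that encircles the snRNAs and those of proteins bound to a single snRNA. Of 6 tested Sm ring genes 5 did not pass the threshold. Snrpf was the exception, at 695 and 779 on DRlyp/lyp arrays, against 1365 and 1211 on DR+/+ arrays (1.75-fold lower, log2 difference -0.80 ± 0.10 SE; limma adjusted p = 5.61e-05). Snrpe read 4668 and 4821 on DRlyp/lyp arrays, against 4350 and 4306 on DR+/+ arrays, and lay just outside the threshold (0.13, interval 0.02 to 0.24; limma adjusted p = 0.0537). Snrpe passed among sets above the 75th percentile of signal (adjusted p = 0.0441) and with a replicate block (0.0176), and its difference was 0.0067 after quantile normalization (adjusted p = 0.927). Snrpb, Snrpd1, Snrpd2 and Snrpd3 differed by 0.09, -0.00, -0.14 and 0.09.

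Among proteins of single snRNPs, Snrpa, which binds the U1 snRNA, was higher at 282 and 279.6 on DRlyp/lyp arrays, against 188 and 170.4 on DR+/+ arrays (1.57-fold; limma adjusted p = 0.00426). Snrpa1 and Snrpb2 encode the pair of proteins that bind the U2 snRNA together. Snrpa1 was higher, at 1085 and 893 on DRlyp/lyp arrays, against 799 and 755 on DR+/+ arrays (1.27-fold; limma adjusted p = 0.0213), but did not pass when DRlyp/lyp replicate 1 (log2 difference 0.20, adjusted p = 0.291) or DR+/+ replicate 2 (0.30, adjusted p = 0.0737) was left out, or when arrays were centred on their medians (0.23, adjusted p = 0.126). Snrpb2 was lower, at 405 and 357 on DRlyp/lyp arrays, against 512 and 519 on DR+/+ arrays (1.36-fold; limma adjusted p = 0.00984), but did not pass when DRlyp/lyp replicate 2 was left out (-0.35, adjusted p = 0.125).

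The largest hnRNP differences were on the lower side. Hnrnpf, which binds runs of G beside regulated exons, read 496 and 526 on DRlyp/lyp arrays, against 1278 and 1247 on DR+/+ arrays (2.47-fold lower, log2 difference -1.30 ± 0.09 SE; limma adjusted p = 8.37e-07). Hnrnpm, a regulator of alternative exons that binds GU-rich RNA, read 798 and 846 on DRlyp/lyp arrays, against 1697 and 1537 on DR+/+ arrays (1.96-fold lower; limma adjusted p = 5.41e-06). Hnrnpab, a relative of the A and D proteins, read 1838 and 1911 on DRlyp/lyp arrays, against 3352 and 3692 on DR+/+ arrays (1.88-fold lower; limma adjusted p = 1.42e-06). In each of these the gap between the pools was several times the gap within a pool. With U2af1 and Sf3b5, these were the 5 genes still called when limma tested against a difference of 1.5-fold.

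Hnrnpl, which binds CA repeats and represses variable exons of CD45, was lower by 1.64-fold (limma adjusted p = 1.76e-05), and Hnrnpu, a nuclear scaffold protein that binds RNA and chromatin, by 1.60-fold (limma adjusted p = 1.42e-05). Hnrnpll, a relative of Hnrnpl that also represses variable exons of CD45 and is known from mouse T cells and plasma cells, went the other way. It read 221 and 236 on DRlyp/lyp arrays, against 119 and 132 on DR+/+ arrays (1.81-fold higher, log2 difference 0.86 ± 0.17 SE; limma adjusted p = 0.00161). Of the 10 T cell markers 9 were higher and 1, Cd4, was lower (log2 difference -1.66; limma adjusted p = 0.0114), and of the 5 plasma cell markers 2 were higher and 1 lower; their part in this difference was not tested. The pools did not overlap for Hnrnpl or for Hnrnpll, nor for 71.8% of all genes tested.

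Hnrnpa0, a minor protein of the A family, was higher at 2082 and 2074 on DRlyp/lyp arrays, against 1445 and 1585 on DR+/+ arrays (1.37-fold; limma adjusted p = 0.000415). Hnrnpa3, of the same family, read 4518 and 5038 on DRlyp/lyp arrays, against 3932 and 3926 on DR+/+ arrays (1.21-fold higher; limma adjusted p = 0.00294), but did not pass with median centring (log2 difference 0.17, adjusted p = 0.156). Hnrnpul1 had the largest fitted difference of the 47 genes, but the weakest signal: 1.4 and 35.7 on DRlyp/lyp arrays, against 54.3 and 78.8 on DR+/+ arrays (log2 difference -2.07 ± 0.62 SE on the floored scale; limma adjusted p = 0.020). Without DRlyp/lyp replicate 1, the array at 1.4, the difference was -0.87 (adjusted p = 0.138), and without DR+/+ replicate 2 it was -1.80 (adjusted p = 0.107). Its size therefore rests on 1 array below the floor.

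Smaller lower differences were called for Hnrnpa1, Hnrnpa2b1, Hnrnpd, which also binds AU-rich elements of unstable mRNAs, and Hnrnph1, a G-run binder like Hnrnpf. They measured -0.27, -0.27, -0.32 and -0.26 on the log2 scale, about 1.2-fold each. All 4 calls were lost without some array: Hnrnpa1 without DRlyp/lyp replicate 1 (adjusted p = 0.0683), Hnrnph1 without DR+/+ replicate 1 (0.0677), and Hnrnpd without either DRlyp/lyp array (0.136 without the first, 0.0709 without the second) or DR+/+ replicate 1 (0.0744). Hnrnpa2b1 did not pass without DRlyp/lyp replicate 1 (-0.13, adjusted p = 0.249) or without either DR+/+ array (0.061 without the first, 0.076 without the second). Hnrnpc, a binder of uridine tracts, differed by -0.08, Hnrnpdl by 0.08, Hnrnph3 by -0.13 and Hnrnpr by 0.22, and none of these 4 passed the threshold. Hnrnpr did so without DRlyp/lyp replicate 1 (0.34, adjusted p = 0.041) and without DR+/+ replicate 1 (0.32, adjusted p = 0.0357).

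SR genes split by member. Srsf1, the prototype of the family, read 718 and 766 on DRlyp/lyp arrays, against 1201 and 1129 on DR+/+ arrays (1.57-fold lower, log2 difference -0.65 ± 0.09 SE; limma adjusted p = 0.000133), and its other probe set was lower too, at 350 and 408 on DRlyp/lyp arrays, against 617 and 729.7 on DR+/+ arrays (1.78-fold; limma adjusted p = 0.000293). Srsf10, which turns into a repressor of splicing when it loses its phosphates, read 216 and 208 on DRlyp/lyp arrays, against 316 and 527 on DR+/+ arrays (1.92-fold lower; limma adjusted p = 0.00284). The DR+/+ arrays of Srsf10 differed from each other more than the lower of them differed from the DRlyp/lyp arrays. Without DR+/+ replicate 2 the Srsf10 difference was -0.58 and still passed the threshold. With the mean of its sets, which span 1.58 on the log2 scale, it was -0.36 and did not pass (limma adjusted p = 0.289), and without the intensity trend (adjusted p = 0.0724) or the filter (0.241) it did not pass either. Srsf6 was lower by 1.44-fold (limma adjusted p = 0.000302), Srsf5 by 1.35-fold (0.00038) and Srsf9 by 1.52-fold (0.00499). Srsf9 did not pass when DRlyp/lyp replicate 1 was left out (-0.46, adjusted p = 0.0702).

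On the higher side, Srsf4 read 1420 and 1444 on DRlyp/lyp arrays, against 1011 and 961 on DR+/+ arrays (1.45-fold; limma adjusted p = 0.000225). Srsf3, the smallest SR protein, read 184 and 144 on DRlyp/lyp arrays, against 98.6 and 86.2 on DR+/+ arrays (1.76-fold; limma adjusted p = 0.00752), but did not pass when DRlyp/lyp replicate 1 was left out (0.64, adjusted p = 0.120). RefSeq names copies of 23 of the 50 genes as -ps symbols, among them 10 of Srsf3, 4 of Hnrnpf, 3 of Srsf10 and 2 each of Hnrnpm, Sf3a2 and Snrpf, and probe sets of these genes could share signal with the copies. Srsf2 read 2341 and 2244 on DRlyp/lyp arrays, against 2158 and 1980 on DR+/+ arrays, and did not pass the threshold (0.15, interval -0.00 to 0.30; limma adjusted p = 0.104), though it did without DR+/+ replicate 1 (0.21, adjusted p = 0.0486). Srsf11 differed by 0.11 (limma adjusted p = 0.246).

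Where several probe sets measured a gene, they often differed. Of all 74 tested sets of these genes 12 (16.2%) were higher and 27 (36.5%) lower, against 19.3% and 19.9% of all probe sets (39.2% in either direction). Of the 16 genes with at least 2 tested sets, 9 (56.2%) had sets on both sides of 0 and 1 (6.25%), Hnrnpa1, had sets called in both directions. Srsf10 is among the 9 through a set at 32.3 and 36.2 on DRlyp/lyp arrays, against 22.8 and 21.3 on DR+/+ arrays, which passed the filter through the DRlyp/lyp arrays alone; without that set, 8 genes had both signs. Over all 2106 genes with at least 2 tested sets these shares were 49.4% and 7.5%, so disagreement was about as common among splicing factor genes as elsewhere. The median gap between the most distant sets of a gene was 0.64 on the log2 scale in both. Of the 27 further sets, 18 had the sign of the brightest set. Srsf1 was the 1 gene of the 16 whose sets were all called the same way.

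Hnrnpa1, an hnRNP that binds exonic and intronic silencers, showed the widest disagreement. Set 1372693_at, the brightest, read 1541 and 1575 on DRlyp/lyp arrays, against 1827 and 1940 on DR+/+ arrays. Set 1387872_at read 1054 and 1113 on DRlyp/lyp arrays, against 2051 and 2130.0 on DR+/+ arrays (1.93-fold lower; limma adjusted p = 2.1e-06). Set 1375612_at read 1168 and 1068 on DRlyp/lyp arrays, against 377 and 416 on DR+/+ arrays (2.82-fold higher; limma adjusted p = 7.95e-07). All 3 sets separated the pools without overlap, as did the brightest sets of 71.8% of all genes tested. With the mean of its 3 sets the difference was 0.0915 (limma adjusted p = 0.362). RefSeq lists 50 pseudogenes named after Hnrnpa1, and where each set lies in the transcript was not known here. The place of Hnrnpa1 among the lower genes thus depends on the set read. It was lower by 1372693_at or 1387872_at, higher by 1375612_at, and not called by the mean of its sets.

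Hnrnpdl was another case in which the choice of set decided the call. Its brightest set read 2138 and 2100.3 on DRlyp/lyp arrays, against 1993 and 2017 on DR+/+ arrays (0.08, limma adjusted p = 0.343), whereas set 1371333_at read 576 and 587 on DRlyp/lyp arrays, against 969 and 855 on DR+/+ arrays (1.57-fold lower; limma adjusted p = 0.00032). For Hnrnph3, the brightest set differed by -0.13 with pools that overlapped, and set 1375019_at read 442 and 417 on DRlyp/lyp arrays, against 712 and 776 on DR+/+ arrays (1.73-fold lower; limma adjusted p = 0.000118). Among the 3 sets of Srsf6, one differed by -0.02 (interval -0.27 to 0.23) and another was 2.68-fold lower, at 57.8 and 71.5 on DRlyp/lyp arrays, against 171 and 174 on DR+/+ arrays. Hnrnpu had 2 sets called lower and 1 on the higher side that did not pass (0.22, limma adjusted p = 0.105).

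**Figure D4:**
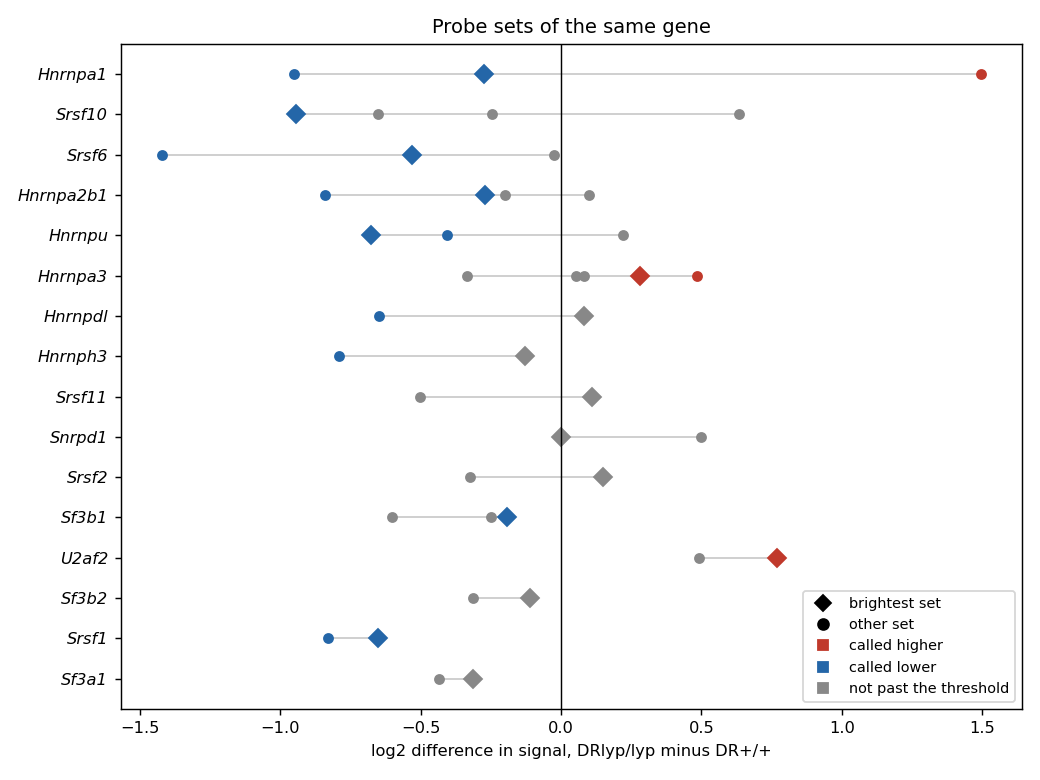
Log2 difference in signal (DRlyp/lyp minus DR+/+, horizontal axis) of every tested probe set of the 16 splicing factor genes with at least 2 of them, ordered from the widest to the narrowest gap; diamonds mark the brightest set, red and blue sets called higher and lower, grey sets not past the threshold. Hnrnpa1 spans from -0.95 to 1.497 and is the 1 gene with both a blue and a red set.

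The rest of the splicing pathway, taken from lists of genes outside these families, showed shares of both directions near those of all genes as deposited, though not under every setting. The test called 39 (25.7%) of its 152 tested genes higher and 36 (23.7%) lower, and their median difference was 0.00 on the log2 scale, against 20.9% and 21.1% of all genes. With each array centred on its median 18 were higher and 49 lower, with the mean of a gene's sets 24 and 42, and with the dimmest set 26 and 47. Among 60 other spliceosome subunits 18 were higher, such as Lsm4, of the protein ring on the U6 snRNA (log2 difference 0.58; limma adjusted p = 9.78e-05), and 16 lower, such as the prolyl isomerase Ppil1 at 183 and 203 on DRlyp/lyp arrays, against 451 and 499 on DR+/+ arrays (2.46-fold; limma adjusted p = 1.95e-05). Among 39 other regulators of alternative splicing 13 were higher and 7 lower. Ptbp1, the polypyrimidine tract binding protein, was lower at 363 and 361 on DRlyp/lyp arrays, against 719 and 652 on DR+/+ arrays (1.89-fold; limma adjusted p = 5.35e-05).

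Among 15 genes of SR protein kinases, SR protein import and dephosphorylation 1 was higher and 4 lower. Clk1, a kinase that phosphorylates SR proteins in the nucleus, read 1654 and 1705 on DRlyp/lyp arrays, against 3076 and 2774 on DR+/+ arrays (1.74-fold lower; limma adjusted p = 5.73e-06), and its relative Clk4 was 1.45-fold lower (limma adjusted p = 0.000895). Ppp1cc, a catalytic subunit of protein phosphatase 1, was the 1 higher gene (1.28-fold, limma adjusted p = 0.000144). Without the intensity trend neither Clk4 (limma adjusted p = 0.0576) nor Ppp1cc (0.081) passed the threshold. Among 23 genes of the exon junction complex, mRNA export and RNA surveillance 5 were higher and 7 lower, with Acin1, a splicing-dependent exon junction protein, at 189 and 197 on DRlyp/lyp arrays, against 474 and 431 on DR+/+ arrays (2.34-fold lower; limma adjusted p = 2.69e-05), and Thoc7, of the export complex TREX, higher by 1.65-fold (limma adjusted p = 1.15e-05). The dimmest tested sets of Acin1 (-1.10, limma adjusted p = 0.0997) and Thoc7 (0.23, limma adjusted p = 0.6345) had the same signs without passing the threshold. Of 15 genes of the SMN complex, which loads Sm proteins onto snRNAs, and of Sm assembly 2 were higher and 2 lower. The other 11 did not pass the threshold. Gemin2, a core member, was lower (log2 difference -0.59; limma adjusted p = 0.00154), and Sart3, which recycles the U4/U6 snRNP, was higher by 1.70-fold (limma adjusted p = 8.82e-05).

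For the 17 splicing factor genes that did not pass the threshold, the brightest sets bound the size of a difference. In 15 of them the 95% interval of the brightest set lay within 1.5-fold in either direction; those of Sf3a1 and U2af1l4 were wider. For Hnrnpdl and Hnrnph3, which are among the 15, the bound does not hold for the other set described above. Nor does it hold for the other tested sets of Sf3b2, Snrpd1, Srsf2 and Srsf11, also among the 15. The intervals of those sets reached beyond 1.5-fold, though none of them passed the threshold. A missed threshold does not show that the pools were equal.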

How the data were processed

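Per the series' design text, mast cell RNA (about 50 ng) was amplified in 2 cycles and hybridised to an Affymetrix rat array. The authors deposited intensity in linear units, 1 per probe set and array. No source used here names the program or scaling. The 2% trimmed mean was 150.05 on each array, and values were not rescaled. Groups came from sample titles. Control sets (57) were left out, signals under the 25th percentile of all arrays (6.8) were set to it before taking log2, and sets that exceeded the overall median (28.3) on 2 or more arrays were tested with limma 3.58.1 in R 4.3.3 (lmFit, eBayes with an intensity trend, 2 residual degrees of freedom). Intervals are limma's, at 95%.

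Symbols came from the platform annotation; 8 probe sets carrying several symbols with 1 of these names were left out. RefSeq's GRCr8 tables gave names, pseudogenes and promoter windows; 0 symbols changed. The files name no genome build. Levels of different probe sets were compared to choose the brightest or dimmest set of a gene and the brightest gene of each family. They were also compared to rank Hnrnpul1 as the weakest, and were summed over marker lists.

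The members and gene lists were chosen with earlier results of these data known. Any of the 50 genes could be named. Array values are given for the 8 largest called differences each way, the brightest gene of each family and genes with sets called against the brightest; others were named after their values were seen. From each other splicing list up to 3 called genes each way could be named. The test was checked on simulated data. Alternatives were quantile normalization, median centring, other filters and floors, an offset of 50, a replicate block, no intensity trend, each array left out in turn, a test against 1.5-fold, and the mean or the dimmest of a gene's sets. Figures used matplotlib 3.10.9 in Python 3.11.15.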

Additional observations from a re-analysis of the deposited data

How the results depend on the processing

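The counts of 10 higher and 20 lower splicing factor genes stayed within 1.5 times under quantile normalization, median centring, the filter at the 75th percentile, the floor at the 10th, the offset of 50, the mean and the dimmest of a gene's sets, and with any array left out (9 to 12 higher, 14 to 18 lower). Without a filter, which adds dim sets to the fit, they were 1 and 8, with 9 and 10 other splicing genes and 1671 probe sets called in all, against 39, 36 and 6302. The splicing factor shares were then 2.0% higher and 16.0% lower, against 3.62% and 3.71% of all genes. Among the genes no longer called were Sf3a2 (limma adjusted p = 0.0574), Hnrnpll (0.0501), U2af2 (0.0562), Hnrnpu (0.0575) and Snrpf (0.0686). Without the intensity trend 10 splicing factor genes were lower (7 higher), with 8 and 21 other splicing genes and 4057 probe sets. Their shares were then 21.3% lower and 14.9% higher for splicing factor genes, against 12.7% and 11.9% of all genes. Against a 1.5-fold difference limma called 0 higher and 5 lower (2 and 9 at an unadjusted p under 0.05), with 0 (3 unadjusted) and 4 other splicing genes and 958 probe sets. Other splicing genes called higher numbered 18 with median centring (49 lower) and 24 with the mean of sets (42 lower), and 20 to 34 with an array left out; probe sets called then numbered 3857 to 5956, lowest without DRlyp/lyp replicate 1 and 4167 without DRlyp/lyp replicate 2. The cause of these shifts was not tested. Median centring moved the median of all genes by -0.11 and left 36.1% of calls higher in DRlyp/lyp, against 49.3%; the median of splicing factor genes was then -0.22, and it was -0.31 with the dimmest set. Signs turned for Hnrnpa1 (0.0915 with the mean of sets, 1.497 with the dimmest), Hnrnpa3 (-0.33), Hnrnpdl (-0.65) and Srsf10 (0.63, a set that passed the filter through the DRlyp/lyp arrays alone) with the dimmest set, and for Cdk13 (0.11 with the mean, 0.39 with the dimmest), Thoc3 (-0.52 and -3.10) and Rbm17 (0.78 with the dimmest), since other probe sets were read. The same-numbered arrays deviated together with r = 0.044 over 16068 probe sets, so the numbers do not pair the samples; with a replicate block 12 splicing factor genes were higher and 20 lower, 44 and 42 other splicing genes, and 7044 probe sets were called. Sets on both sides of 0 were found in 9 genes with all sets and 8 after quantile normalization, with 1 gene called both ways in each, and in 8 without the set dim in DR+/+, an alternative chosen after seeing the data. Signal near the floor limits Hnrnpul1 and the dim sets of Srsf10, U2af2 and Sf3b1.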
